A study of Mus musculus with 15 samples.

Results

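Jejunal epithelium that had lost both Brg1 and Apc was compared with epithelium that had lost Brg1 alone. The comparison used 8 of the 15 arrays of the series, chosen by genotype label: 4 from Brg1-Apc deficient mice (VillinCreERT2+ Apc fl/fl Brg1 fl/fl) and 4 from Brg1 deficient mice (VillinCreERT2+ Brg1 fl/fl). Both groups carried the Cre recombinase and floxed Brg1, so the genotype labels differ only in the Apc alleles. All 16592 named genes on the array are described, each by whichever of its probes averaged highest on the 15 arrays. The remaining arrays came from 3 Apc deficient mice (VillinCreERT2+ Apc fl/fl Brg1 +/+) and 4 Cre-negative controls. They set a second, separate pair of groups beside the first. They also enter the estimate of spread behind every test, and with only the 8 arrays fewer genes passed (415 higher and 46 lower). Tamoxifen was given to all mice as 4 daily doses of 80 mg/kg, and epithelium was scraped from the jejunal wall on day 4 after induction. VillinCreERT2 is a tamoxifen-activated Cre under the Villin promoter, which is active in gut epithelium and not in the other cells that a scrape can carry along.

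Apc is part of the complex that tags beta-catenin for destruction. When Apc is lost, beta-catenin accumulates and switches on Wnt target genes together with TCF factors. In the small intestine Wnt signalling keeps crypt cells dividing, while differentiated villus cells absorb nutrients, and acute loss of Apc is known to enlarge the crypt compartment. Brg1, encoded by Smarca4, is an ATPase of the SWI/SNF complexes, which move nucleosomes. Brg1 is known as a partner of beta-catenin at Wnt targets. The comparison therefore addresses which part of the response to Apc loss is seen in Brg1 deficient epithelium.

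Values are log2 expression values as deposited, and a difference always means the Brg1-Apc deficient mean minus the Brg1 deficient mean on that scale, unless another pair of groups is named. Array medians lay between 5.59 and 5.90, so a group mean at or below 5.90 is near background and a difference from it may be understated. The limma model was fitted over all arrays and all probes, and a gene passed the test at a Benjamini-Hochberg adjusted p under 0.05. Brg1 deficient replicate 4 stood apart from the other arrays. Its interquartile range was 1.23 against 1.89 to 2.56 elsewhere, its mean correlation with its own group was 0.893, and it lay at -99.2 on the first principal component of the 8 arrays. The second component, with 25.4% of the variance, separated the genotypes, at 28.8 to 47.2 for Brg1-Apc deficient and -51.9 to -25.6 for Brg1 deficient arrays. The arrays lay on 2 slides, each with 2 arrays of either group, and each of the 8 positions on a slide held a single genotype, so effects of slide position cannot be told apart from those of genotype.

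Smarca4 was low in both groups. It read 6.04, 6.10, 6.16 and 6.04 in Brg1-Apc deficient replicates 1 to 4 and 6.03, 6.18, 6.22 and 6.36 in Brg1 deficient replicates 1 to 4. The ranges overlapped, and both lay below the control range of 7.35 to 7.73 and the Apc deficient range of 7.88 to 8.40. The difference in Smarca4 was -0.11 (SE 0.17, limma adjusted p = 0.825). For Apc it was -0.46 (SE 0.43, limma adjusted p = 0.691), but where its probe lies relative to the deleted part is not known here, so the Apc value checks nothing. The position of the Smarca4 probe is not known here either, and completeness of the Brg1 deletion was not tested.

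Epithelium without Apc and Brg1 differed from epithelium without Brg1 mostly by higher expression. Of all genes, 917 were higher (5.53%) and 157 were lower (0.946%) in Brg1-Apc deficient epithelium. The median rise among the former was 1.14 and the median fall among the latter was -0.99, while the median over all genes was -0.03. Rises above 2-fold numbered 610 and falls above 2-fold 76, and above 4-fold the counts were 70 and 2. The arrays of the groups did not overlap for 1186 genes that were higher (7.15%) and for 477 that were lower (2.87%). Of the genes that rose, 77 had a Brg1 deficient mean at or below 5.90. After quantile normalization there were 702 higher and 250 lower. Without Brg1 deficient replicate 4, 1059 genes were higher (6.38%) and 565 lower (3.41%), with 839 of the 917 and 139 of the 157 among them. Falls numbered 87 when Brg1 deficient replicate 3 was left out and 88 when Brg1-Apc deficient replicate 3 was. Because the samples are bulk scrapes, fewer cells of a type and less RNA per cell cannot be told apart in any of these differences.

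**Figure D1:**
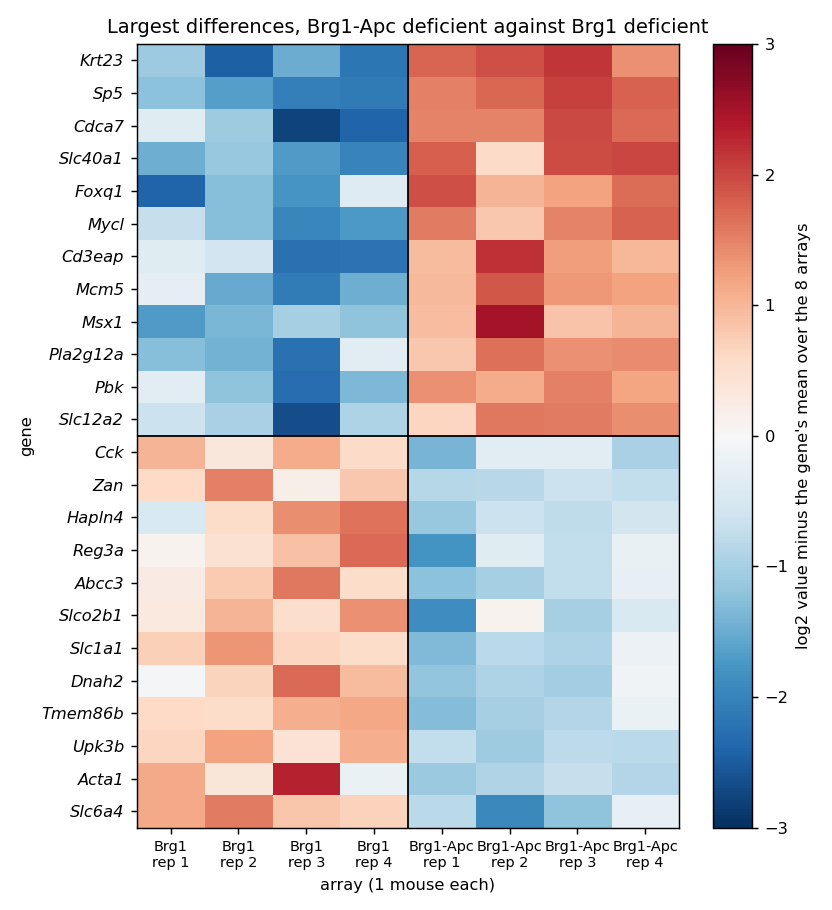
Each row is a gene and each column an array of 1 mouse, with the colour giving the log2 value minus the mean of that gene over the 8 arrays. The 12 largest rises and the 12 largest falls that passed the test with no overlap between groups are drawn, from Krt23 at a difference of 3.60 to Slc6a4 at -2.10.

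Direct Wnt targets were among the genes that rose. Of those described next, Sp5 was among the 12 largest rises, while Axin2, Tnfrsf19 and Tiam1 rose less. Sp5, a zinc finger factor induced directly by beta-catenin, read 9.31, 9.53, 9.85 and 9.57 across the Brg1-Apc deficient arrays and 6.56, 6.15, 5.76 and 5.68 across the Brg1 deficient arrays. Every Brg1-Apc deficient array was higher, by an 11.6-fold difference of means (3.53, SE 0.24, limma adjusted p = 1.07e-06). Axin2, the feedback scaffold of the destruction complex, read 11.12, 10.23, 11.25 and 11.31 against 9.67, 9.23, 9.29 and 8.12. Its groups also did not overlap, and the mean was 3.73-fold higher (1.90, SE 0.33, limma adjusted p = 0.00193). Tnfrsf19, a receptor of the TNF family marking Wnt-active crypt cells, read 6.52, 6.19, 6.61 and 7.08 against 5.36, 4.59, 4.97 and 5.32. All 4 Brg1 deficient values of Tnfrsf19 are near background, so its difference of 1.54 (SE 0.24, limma adjusted p = 0.000875) may be understated. Tiam1, an exchange factor for Rac, read 8.02, 7.67, 8.46 and 8.10 against 6.69, 6.72, 5.82 and 5.96. Again no Brg1 deficient array reached the lowest Brg1-Apc deficient one, at a difference of 1.76 (SE 0.25, limma adjusted p = 0.000452).

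The promoter windows of 3 of these genes are shown because they hold the core of the TCF binding motif, the DNA letters through which beta-catenin partners recognise Wnt targets. Windows of 300 bases around the annotated start were taken from RefSeq (GRCm38.p6), and CTTTGAT was searched on both strands, so that a match to the opposite strand appears as ATCAAAG. The capitals mark the match, and each window is printed 5′ to 3′ on the strand of its gene: Sp5 at chr2:70474673-70474972 on the plus strand, Tnfrsf19 at chr14:61037938-61038237 on the minus strand and Tiam1 at chr16:89818303-89818602 on the minus strand.
Sp5: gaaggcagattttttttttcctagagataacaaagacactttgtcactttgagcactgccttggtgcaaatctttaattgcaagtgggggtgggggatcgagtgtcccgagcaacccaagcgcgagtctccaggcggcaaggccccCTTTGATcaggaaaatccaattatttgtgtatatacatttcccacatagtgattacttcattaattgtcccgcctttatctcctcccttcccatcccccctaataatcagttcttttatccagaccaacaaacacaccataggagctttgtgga
Tnfrsf19: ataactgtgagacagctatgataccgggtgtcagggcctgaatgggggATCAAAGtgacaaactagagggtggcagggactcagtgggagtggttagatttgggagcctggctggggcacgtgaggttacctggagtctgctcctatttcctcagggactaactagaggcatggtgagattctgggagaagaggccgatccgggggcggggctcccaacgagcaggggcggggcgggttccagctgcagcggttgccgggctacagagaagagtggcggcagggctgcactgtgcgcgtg
Tiam1: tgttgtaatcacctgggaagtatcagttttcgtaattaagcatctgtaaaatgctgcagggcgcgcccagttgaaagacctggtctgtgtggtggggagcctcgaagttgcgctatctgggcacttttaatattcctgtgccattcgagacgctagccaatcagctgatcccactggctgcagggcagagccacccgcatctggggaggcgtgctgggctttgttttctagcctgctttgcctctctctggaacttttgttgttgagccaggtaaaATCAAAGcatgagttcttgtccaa
Of the 42 Wnt feedback and direct target genes measured, 30 had a window, and 4 of these (13.3%) held the motif, the fourth being Mmp7. Among the 10 with a window that rose, 3 held it. By comparison it was present for 1160 of 27025 genes with a window (4.29%) and for 22 of 764 genes that rose (2.88%). A match is a description of these letters and does not show that a factor binds there.

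On the whole Wnt feedback and direct target list, 13 of 42 genes rose and 0 fell, at a median difference of 0.24. The mean log2 level of the list was 7.08 to 7.32 in Brg1-Apc deficient arrays and 6.38 to 6.62 in Brg1 deficient arrays, without overlap. In Apc deficient arrays it was 7.65 to 7.77 and in controls 6.69 to 6.84, so the list stood lowest without Brg1 and highest without Apc alone. Cd44, an adhesion receptor of crypt cells, read 8.34, 8.65, 9.05 and 8.48 against 7.12, 6.81, 5.92 and 6.55. It was thus higher in every Brg1-Apc deficient array (difference 2.03, SE 0.24, limma adjusted p = 0.000136). Prox1, a homeobox factor induced in intestinal tumours, rose by 1.81, and Ccnd1, the G1 cyclin D1, by 1.34. The Ccnd1 arrays overlapped, at 10.63 to 11.57 against 8.34 to 10.86.

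Other well-known targets did not pass the test. Myc, the growth regulator downstream of Wnt, read 5.44, 5.64, 5.22 and 4.49 in Brg1-Apc deficient arrays and 5.75, 5.53, 5.06 and 5.76 in Brg1 deficient arrays. These 8 values are at background, with a difference of -0.33 (SE 0.29, limma adjusted p = 0.662), while Apc deficient arrays read 7.11, 7.84 and 6.43. Lgr5, a Wnt-amplifying receptor found on the stem cells at the crypt base, read 5.67, 5.99, 6.24 and 5.91 against 5.84, 5.72, 5.86 and 6.23. The difference in Lgr5 was 0.05 (SE 0.24, limma adjusted p = 0.960) beside 1.76 between Apc deficient and control. Both Lgr5 and Myc passed the test of the difference between these differences (interaction), at -1.72 (limma adjusted p = 0.0300) and -1.97 (limma adjusted p = 0.0388). Notum, a secreted Wnt deacylase, had a difference of 0.79 (limma adjusted p = 0.151), and Lef1, a TCF family factor, one of -0.17 (limma adjusted p = 0.739).

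Among Wnt ligands, receptors and transducers, 4 of 42 rose and 0 fell (2 rose after quantile normalization). The 4 rises were 9.52% of the list, against 5.53% of all genes. They were Csnk1e, a casein kinase acting on the pathway, at 1.50, the ligand Wnt5b at 1.32, the corepressor Tle1 at 1.20 and the beta-catenin coactivator Bcl9l at 0.66. Other probes gave 1.15, 0.10 and 0.02 for Tle1 and 0.70 for Csnk1e. Between Apc deficient and control, Tle1 and Bcl9l had differences of -0.06 (limma adjusted p = 0.928) and 0.07 (limma adjusted p = 0.902).

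Crypt base stem cell genes held members of both kinds. Of 24 measured, 10 rose and 0 fell (median 0.51). Besides Sp5 and Axin2, these included Cdca7, a chromatin regulator of dividing crypt cells, and Slc12a2, a chloride cotransporter of crypts. Cdca7 read 11.83, 11.83, 12.33 and 12.05 against 9.98, 9.28, 7.58 and 7.94. Every Brg1 deficient value lay below, and the mean was 9.96-fold higher with Apc loss (limma adjusted p = 0.000107). Slc12a2 read 11.81, 12.74, 12.71 and 12.56 against 10.50, 10.19, 8.49 and 10.24, again without overlap, at a difference of 2.60 (SE 0.34, limma adjusted p = 0.000276). Of its 3 other probes, 1 gave 2.47 and the others -0.45 and -0.15. Igfbp4, a binding protein for insulin-like growth factors, rose by 2.53, Aqp4, a water channel, by 2.35 and Kcnq1, a potassium channel, by 1.54. Olfm4, a secreted stem cell protein with a control mean of 9.87, read 6.39, 6.70, 7.35 and 6.61 against 7.57, 6.17, 5.52 and 5.90. Olfm4 thus stayed below every control array in both groups, and its difference of 0.48 did not pass the test (limma adjusted p = 0.699). Ascl2, a transcription factor of the stem cell programme, had a difference of 0.18 (limma adjusted p = 0.805), with 1.60 between Apc deficient and control (limma adjusted p = 0.000564). The mean level of the stem cell list was 7.25 to 7.73 in Brg1-Apc deficient arrays, 6.28 to 6.74 in Brg1 deficient, 8.39 to 8.62 in Apc deficient and 7.11 to 7.40 in control arrays. On the reserve stem cell list 0 of 8 genes passed, with Lrig1, an ErbB inhibitor, at 1.62 (limma adjusted p = 0.0709).

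**Figure D2:**
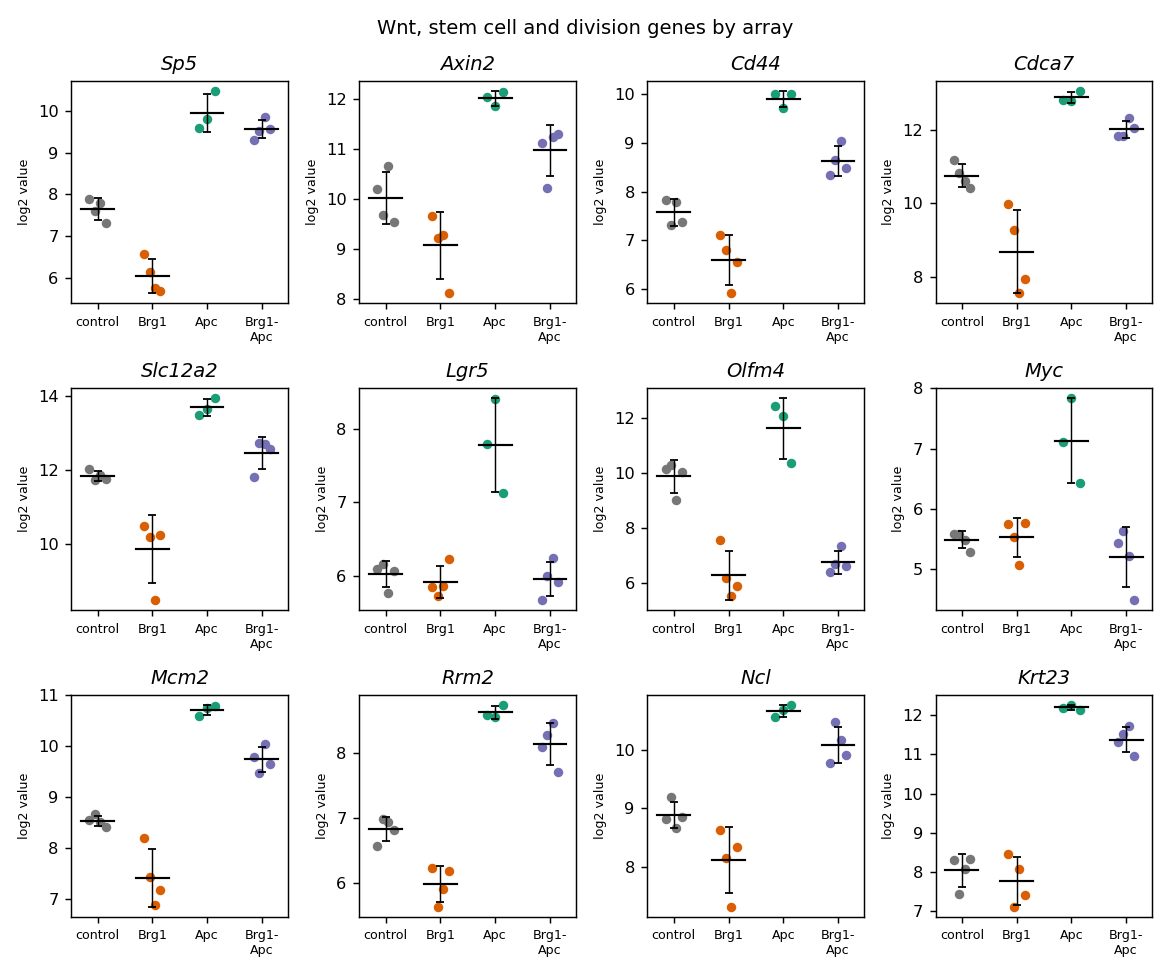
Each panel shows the log2 value of 1 gene by array, with horizontal lines at the group means and bars of 1 SD over 3 or 4 mice, and the vertical scale differs between panels. Sp5, Cd44 and Mcm2 are higher in all Brg1-Apc deficient than in all Brg1 deficient arrays, whereas Lgr5, Olfm4 and Myc overlap between these groups.

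Of all lists, DNA replication had the largest share of genes that rose. Of 46 DNA replication and G1/S genes, 27 rose and 0 fell, at a median of 1.27. Mcm5, a subunit of the replicative helicase, read 11.33, 12.23, 11.66 and 11.58 in Brg1-Apc deficient and 10.11, 8.86, 8.28 and 8.90 in Brg1 deficient arrays. The groups were separate by over 1 log2 unit at their closest, with a 6.33-fold difference of means (limma adjusted p = 8.28e-05). Mcm2, of the same helicase, read 9.78, 9.47, 10.05 and 9.66 against 8.21, 7.43, 6.88 and 7.18, also without overlap (2.32, SE 0.23, limma adjusted p = 5.76e-05). Rrm2, which makes deoxyribonucleotides, read 8.09, 8.28, 8.46 and 7.71 against 6.22, 5.63, 5.90 and 6.18. It was 4.45-fold higher and did not overlap (limma adjusted p = 1.91e-05). Mcm4 rose by 2.54, the licensing factor Cdt1 by 2.17, the methylation reader Uhrf1 by 2.16 and the S phase activator E2f1 by 2.01. The list level was 8.25 to 8.51 in Brg1-Apc deficient arrays. In Brg1 deficient arrays it was 6.80 to 7.84, spanning 7.84 in replicate 1 and 6.80 in replicate 3, and in controls it was 7.70 to 7.92. Brg1-Apc deficient arrays therefore lay above both, and below the Apc deficient range, which ended at 9.21.

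Of 54 G2/M and mitosis genes, 21 rose, 0 fell and 33 did not pass the test (median 0.78). Pbk, a mitotic kinase, read 10.94, 10.68, 11.08 and 10.76 against 9.22, 8.35, 7.28 and 8.21, with no overlap (2.60, SE 0.31, limma adjusted p = 0.000119). The kinesin Kif22 rose by 2.24, the microtubule depolymerase Kif2c by 2.14, the passenger complex subunit Incenp by 1.87 and the anaphase activator Cdc20 by 1.56. Top2a, the topoisomerase of mitotic chromosomes, ranged from 5.23 to 9.20 in Brg1 deficient arrays and did not pass (1.51, limma adjusted p = 0.185). On the chromatin modifier list 5 of 36 rose, 0 fell and 31 did not pass. These were Lmnb1, a nuclear lamin, at 2.17, the DNA methyltransferases Dnmt3b at 2.02 and Dnmt1 at 1.38, and the Polycomb proteins Eed at 0.79 and Cbx2 at 0.74. Of 23 SWI/SNF subunits 1 rose, which at 4.35% is near the 5.53% of all genes. It was Bcl7a (1.41, limma adjusted p = 0.00271), with 3 subunits higher without Brg1 deficient replicate 4 and 2 after median centring. Arid2, a subunit of the PBAF form, had 0.77 (limma adjusted p = 0.0759), and 0.91 without that array (limma adjusted p = 0.0225).

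CDK inhibitors and p53 target genes held calls in both directions. Of 32 measured, 3 rose (9.38%, against 5.53% of all genes) and 2 fell (6.25%, against 0.946% of all genes). With Brg1 deficient replicate 4 left out, 6 fell. Cdkn1a, encoding the CDK inhibitor p21, read 10.96, 11.21, 10.87 and 10.61 against 12.06, 12.22, 12.22 and 11.61. It was lower in every Brg1-Apc deficient array, and fell by 1.12 on the log2 scale (SE 0.21, limma adjusted p = 0.00363). Cdkn2b, encoding p15, read 10.31, 10.37, 10.35 and 10.28 against 11.68, 11.39, 11.95 and 11.24. Its fall of -1.24 (SE 0.18, limma adjusted p = 0.000608) was smaller than the fall of -2.63 between Apc deficient and control, with an interaction of 1.40 (limma adjusted p = 0.0239). The genes that rose were the apoptosis inducer Bbc3 at 0.96, the Akt inhibitor Phlda3 at 0.94 and the CDK inhibitor Cdkn2c at 0.69. Bbc3 had 2 other probes, at 0.32 and -0.15.

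Lists of ribosome and nucleotide production held further rises. Of 53 ribosome biogenesis genes 24 rose, 0 fell and 29 did not pass the test (median 0.92). Of 35 nucleotide and polyamine synthesis genes 11 rose, 0 fell and 24 did not pass (median 0.82). Ncl, the nucleolar protein nucleolin, read 9.77, 10.47, 10.16 and 9.90 against 8.64, 8.16, 7.33 and 8.35. The lowest Brg1-Apc deficient value was above the highest Brg1 deficient one, and the mean 3.87-fold higher (limma adjusted p = 0.000195). Gar1, of the pseudouridylation complex, rose by 2.09, the nucleolar chaperone Npm1 by 2.13, the rRNA methyltransferase Nop2 by 1.64 and Cd3eap, a subunit of RNA polymerase I, by 2.70. Ctps, the cytidine nucleotide synthetase, rose by 2.56 (SE 0.28, limma adjusted p = 8.25e-05). Ppat, the first enzyme of purine synthesis, rose by 1.84, Shmt2 of mitochondrial folate metabolism by 1.40 and Odc1, the first enzyme of polyamine synthesis, by 0.93. Among cytosolic ribosomal proteins 3 of 44 rose (6.82%, near the 5.53% of all genes; 7 without Brg1 deficient replicate 4) and 0 fell, at a median of 0.16. The 3 were Rpl4, Rpl13a and Rps4x, at 1.04, 0.78 and 0.81, and another Rpl4 probe gave -0.48. The list level of ribosome biogenesis was 8.21 to 8.59 in Brg1-Apc deficient, 7.11 to 7.92 in Brg1 deficient, 8.96 to 9.19 in Apc deficient and 7.72 to 8.01 in control arrays.

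Several of the largest rises lie outside these lists of division and growth. Krt23, an epithelial keratin, read 11.31, 11.51, 11.71 and 10.95 against 8.47, 7.12, 8.07 and 7.41. It had the largest rise of the genes named by the rule (12.2-fold, SE of the log2 difference 0.28, limma adjusted p = 4.7e-06), with no overlap. Slc40a1, the iron exporter ferroportin, read 11.03, 9.81, 11.21 and 11.24 against 7.78, 8.11, 7.56 and 7.24. Replicate 2 was the lowest Brg1-Apc deficient array and still lay above all Brg1 deficient arrays (3.15, SE 0.48, limma adjusted p = 0.000879). Foxq1, a forkhead factor, rose by 2.92 and Mycl, a relative of Myc, by 2.82, both without overlap. Msx1, a homeobox factor of developing tissues, read 7.96, 9.53, 7.90 and 8.06 against 5.33, 5.66, 6.04 and 5.83, where the Brg1 deficient mean is near background. Of 38 developmental transcription factors 5 rose and 0 fell, with Etv4 at 1.48, Sox21 at 1.09 and Pitx1 at 0.98 beside Foxq1 and Msx1. Pla2g12a, a secreted phospholipase, rose by 2.62, but its other probe gave -0.08. Smad9, seen after the values were known, had a larger difference (3.68, limma adjusted p = 0.0464) from group means of 4.15 and 0.48 that are below background.

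Fewer genes fell than rose. Slc6a4, the serotonin transporter, read 7.94, 6.82, 7.56 and 8.51 in Brg1-Apc deficient and 9.90, 10.31, 9.58 and 9.45 in Brg1 deficient arrays. It did not overlap and was 4.30-fold lower (-2.10, SE 0.28, limma adjusted p = 0.000349). Slc1a1, a glutamate transporter, read 8.91, 9.42, 9.30 and 10.04 against 10.94, 11.55, 10.88 and 10.78, with no overlap (-1.62, SE 0.24, limma adjusted p = 0.000734). Abcc3, an organic anion exporter, fell by 1.59 and Slco2b1, an organic anion importer, by 1.61 on the log2 scale. Tmem86b, a lysoplasmalogenase, fell by 1.68, and Upk3b, a uroplakin family protein, by 1.70. Upk3b read 6.37 to 6.68 in Brg1-Apc deficient arrays, 7.87 to 8.64 in Brg1 deficient arrays, 5.65 to 6.01 in Apc deficient and 5.94 to 6.42 in control arrays. It was thus high in the Brg1 deficient group alone among these 4. Acta1, encoding skeletal muscle actin, fell by 1.79 (limma adjusted p = 0.0362), Hapln4, a link protein of hyaluronan, by 1.56 and Zan, encoding the sperm protein zonadhesin, by 1.54. Dnah2, an axonemal dynein, fell by 1.64, while its other probe gave 0.23.

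**Figure D3:**
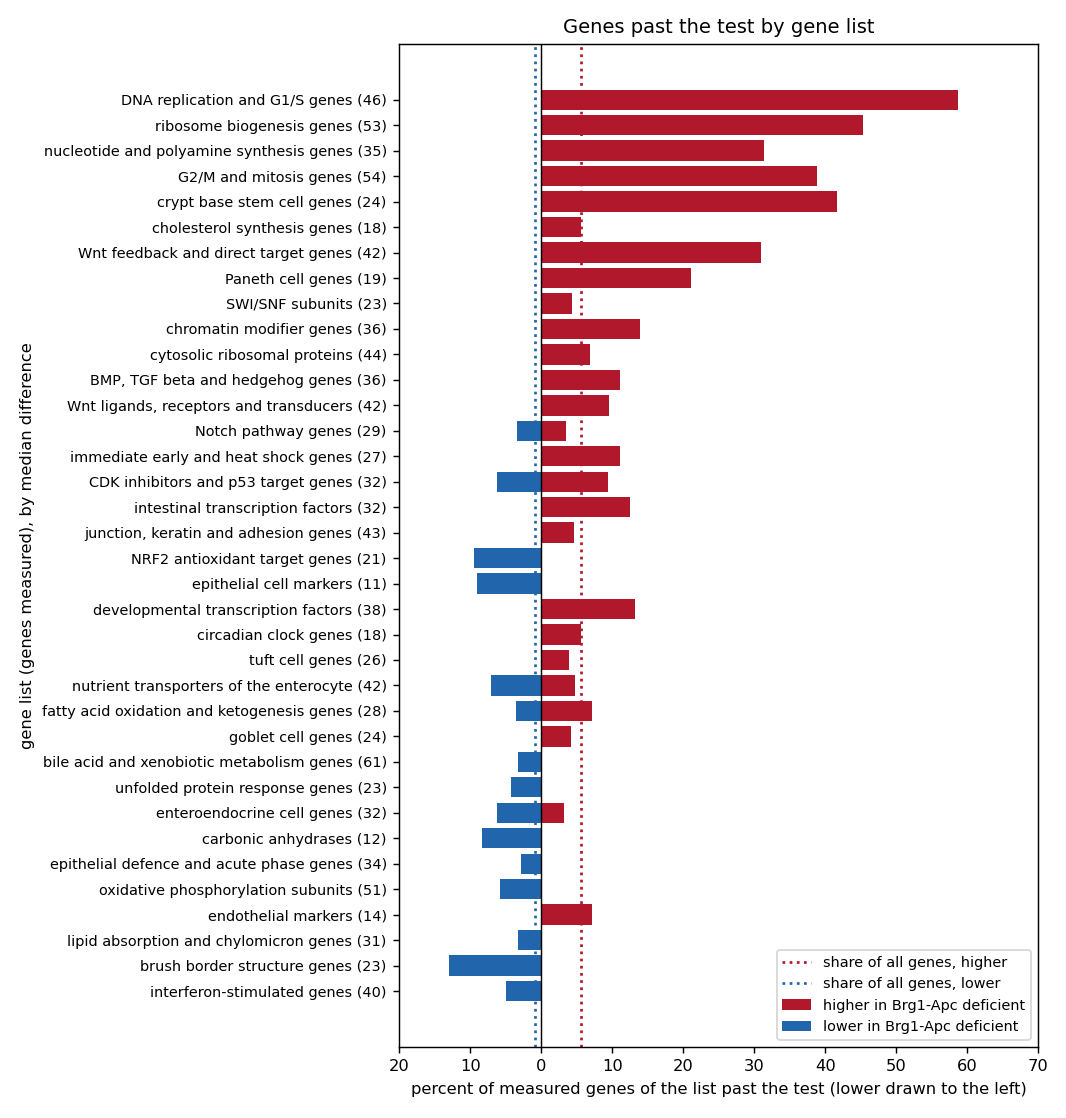
Bars give the percentage of the measured genes of each list that passed the test, higher to the right and lower to the left, with the number measured in parentheses, and dotted lines mark the shares over all genes, 5.53% and 0.946%. Lists with no gene past the test are left out, and DNA replication and G1/S genes have the longest bar, 27 of 46.

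Among the absorptive lists of the enterocyte, those of brush border structure, nutrient transporters and lipid absorption held more falls than rises. Falls made up 13.0% of brush border structure genes, 7.14% of nutrient transporters and 3.23% of lipid absorption genes, against 0.946% of all genes. Of 22 brush border digestion enzymes 0 passed the limma test (2 were lower without Brg1 deficient replicate 4), at a median of -0.26. Sis, the sucrase-isomaltase that splits dietary sugar, read 14.56, 12.82, 13.95 and 14.68 against 14.66, 14.88, 14.75 and 14.06. The arrays overlapped, and the difference was -0.59 (SE 0.39, limma adjusted p = 0.521). Mme, the peptidase neprilysin, read 10.44, 8.33, 9.24 and 10.54 against 9.75, 10.52, 10.43 and 8.57, which overlap almost fully (-0.18, SE 0.54, limma adjusted p = 0.930). Treh, which splits trehalose, had a difference of 1.18 (limma adjusted p = 0.367), and Aoc1, diamine oxidase, one of -0.92 (limma adjusted p = 0.361). Enpp7, alkaline sphingomyelinase, had -0.62 (limma adjusted p = 0.728), and -1.53 without Brg1 deficient replicate 4 (limma adjusted p = 0.0118).

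Of 42 nutrient transporters of the enterocyte, 2 rose and 3 fell, with 7 lower without Brg1 deficient replicate 4, at a median of -0.15. Slc40a1 and the nucleoside transporter Slc29a1 rose, the latter by 1.33. The falls were in carriers of amino acids, Slc7a7 at -1.75, Slc1a1 at -1.62 and Slc36a1 at -1.40. Slc46a1, the folate transporter, had a difference of 1.21 that did not pass (limma adjusted p = 0.412). On the list of 31 lipid absorption and chylomicron genes only Cideb, a lipid droplet protein, fell (-1.18, limma adjusted p = 0.0129), and 5 fell without Brg1 deficient replicate 4. Apoc3, an apolipoprotein, had -1.33 (limma adjusted p = 0.157) and Plin3, a droplet coat protein, -0.94 (limma adjusted p = 0.0541). Of 28 fatty acid oxidation and ketogenesis genes 2 rose, Acot1 at 1.30 and Bdh1 at 0.82, and 1 fell, Hadhb at -0.68. On that list 3 fell without Brg1 deficient replicate 4 and 0 after median centring. A second Bdh1 probe gave -0.12.

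Brush border structure showed the lowest median of the absorptive lists, -0.52, with 0 of 23 higher and 3 lower (7 without Brg1 deficient replicate 4, 1 after quantile normalization). Vil1, encoding the microvillus protein villin, read 12.93, 11.98, 11.23 and 11.36 against 13.39, 13.10, 13.14 and 13.63. All Brg1-Apc deficient values were lower, with replicate 1 closest (-1.44, SE 0.37, limma adjusted p = 0.0275). The motor Myo5b fell by 0.83 and the scaffold Ush1c by 0.91 on the log2 scale, but neither passed without Brg1 deficient replicate 4 (limma adjusted p = 0.0614 and 0.0825). The Villin promoter drives the Cre in both groups. All Vil1 values remained far above the array medians, and whether Cre activity differed between the groups was not tested. Of 61 bile acid and xenobiotic metabolism genes 2 fell (1 after median centring), Slc51b, a bile acid exporter subunit, at -1.41 and Aldh1a1, a retinaldehyde dehydrogenase whose arrays overlapped, at -2.20. Slc51b read 12.21, 12.22, 12.15 and 12.06 against 13.89, 13.66, 14.07 and 12.65, without overlap. Among 21 NRF2 antioxidant targets Osgin1 and Srxn1 each had -1.09 and passed the test. Of 12 carbonic anhydrases Car9 fell (-1.19, limma adjusted p = 0.0162), and 2 fell without Brg1 deficient replicate 4. Car4, a brush border anhydrase, had -1.17 (limma adjusted p = 0.349), and -2.09 without Brg1 deficient replicate 4 (limma adjusted p = 0.000112).

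On the lineage lists few members passed the test. Of 19 Paneth cell genes 4 rose: Defa31, a defensin, at 2.93, Itln1, a lectin, at 2.07, Habp2 at 1.26 and the transcription factor Sox9 at 1.13. Defa31 read 8.85, 8.89, 5.43 and 10.38 against 5.24, 4.61, 5.14 and 6.83, so that replicate 3 of the Brg1-Apc deficient group lay within the Brg1 deficient range, and near-identical defensins may share its probe. Lyz1, the Paneth cell lysozyme, had a difference of 1.03 (limma adjusted p = 0.294). Within slide 1 the median of the Paneth list was -0.23 and within slide 2 it was 1.70. Of 32 enteroendocrine genes 1 rose and 2 fell (6 without Brg1 deficient replicate 4). Neurog3, which specifies endocrine progenitors, read 8.14, 8.84, 8.61 and 8.37 against 8.01, 6.93, 5.88 and 6.21. It was higher in each Brg1-Apc deficient array (1.73, SE 0.35, limma adjusted p = 0.00690). Chga, the granule protein chromogranin A, read 7.22, 7.51, 7.46 and 7.54 against 8.74, 8.54, 8.54 and 8.37, and Cck, the hormone cholecystokinin, at most 7.08 against 8.43, 7.73, 8.52 and 7.98. Both were lower in all Brg1-Apc deficient arrays, at -1.12 (limma adjusted p = 0.00185) and -1.53 (limma adjusted p = 0.00230). Sst, somatostatin, had -0.89 (limma adjusted p = 0.0505) and Gcg, glucagon, -0.89 (limma adjusted p = 0.299). In goblet cells 1 of 24 genes rose, the chemokine Ccl9 at 1.30, and in tuft cells 1 of 26, the receptor Il17rb at 0.72. Rises made up 21.05% of the Paneth, 3.13% of the enteroendocrine, 4.17% of the goblet and 3.85% of the tuft list. Over all genes the share of rises was 5.53%, so for rises only the Paneth list lay above it. Falls made up 6.25% of the enteroendocrine list, against 0.946% of all genes. The Paneth, goblet and tuft lists held 0 falls.

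Regulators that shape crypt and villus were followed on 3 further lists. Of 29 Notch pathway genes 1 rose and 1 fell (3.45% each, against 5.53% and 0.946% of all genes). Hes6, an inhibitor of Hes1, read 10.60, 11.13, 10.78 and 10.99 against 8.79, 8.63, 8.50 and 8.89. The separation in Hes6 was complete (2.17, SE 0.19, limma adjusted p = 1.22e-05), while the ligand Dll1 fell by 0.85 on the log2 scale. Among BMP, TGF beta and hedgehog genes 4 of 36 rose (11.1%, against 5.53% of all genes) and 0 fell. They were the receptor Tgfbr2 at 1.54, Smad5 at 1.40, the ligand Bmp7 at 1.20 and the hedgehog transducer Smo at 1.07. Smad5 had other probes at -0.00 and 1.27, Smo had others at -0.03 and 0.04, and Tgfbr2 had another at 0.32. Of 32 intestinal transcription factors 4 rose (12.5%, against 5.53% of all genes) and 0 fell. The rises were Sox17 at 1.36, Onecut2 at 1.07, Klf5, a crypt factor, at 0.83 and Ets2 at 0.67. Without Brg1 deficient replicate 4 Ets2 did not pass (limma adjusted p = 0.0795), and 2 members of that list were lower.

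Interferon-stimulated genes had the lowest median of all lists that held a gene past the test, -0.52. Of 40 measured, 0 were higher and 2 lower, while 13 were lower without Brg1 deficient replicate 4 and 0 after median centring. Gbp2, an interferon-induced GTPase, read 8.31, 8.42, 7.69 and 7.25 against 10.63, 9.49, 8.91 and 8.55, and Stat2, which carries the type I interferon signal, 7.19, 6.27, 7.13 and 7.10 against 9.32, 8.64, 8.08 and 6.96. Gbp2 was lower in every Brg1-Apc deficient array (-1.48, limma adjusted p = 0.0431), and its other probes gave 0.46 and -0.56. Stat2 overlapped through Brg1 deficient replicate 4 (-1.33, limma adjusted p = 0.0482). The list level ranged from 8.28 to 8.98 in Brg1-Apc deficient arrays and from 8.35 in replicate 4 to 10.18 in replicate 1 in the Brg1 deficient group. Of 34 epithelial defence genes 1 fell (5 without Brg1 deficient replicate 4), Reg3a, an antimicrobial lectin. It read 7.73, 9.17, 8.78 and 9.30 against 9.62, 9.97, 10.40 and 11.21, without overlap (-1.56, SE 0.37, limma adjusted p = 0.0188). Of 51 oxidative phosphorylation subunits 3 fell (15 without that array), Cox6a1, Ndufa2 and Cox5b, at -0.93, -0.70 and -0.60. Of 10 MHC class II genes and 20 glycolysis genes 0 passed the limma test, with 1 glycolysis gene lower without that array.

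Markers of other cells of the gut wall were read on the same arrays. On the 11 lists of other cell types the only gene past the test was Esam, an adhesion molecule of endothelium, at 1.78 (limma adjusted p = 0.00773), on a list of 14 endothelial markers whose median was -0.33. The 21 markers of T cells and intraepithelial lymphocytes averaged 6.999 to 7.71 in Brg1-Apc deficient and 7.28 to 8.16 in Brg1 deficient arrays, with overlap. The 12 smooth muscle markers averaged 5.86 to 6.94 and 6.19 to 7.50, and the 17 macrophage and dendritic cell markers 5.78 to 6.13 and 6.09 to 6.58. Of the latter 3 were lower without Brg1 deficient replicate 4, and the complement gene C1qc had -1.36 (limma adjusted p = 0.0598). Mast cell, enteric neuron and glia, and red blood cell lists averaged between 5.05 and 6.21 in all 8 arrays, near background. Among the red cell markers, Hba-a1, an alpha globin, read 6.22, 7.09, 6.67 and 5.64 in Brg1-Apc deficient and 7.82, 9.74, 6.51 and 8.76 in Brg1 deficient arrays. Its groups overlapped through Brg1 deficient replicate 3, and the difference of -1.80 (SE 0.56) did not pass (limma adjusted p = 0.0759). The 11 epithelial cell markers averaged 11.30 to 11.67 and 11.20 to 11.88, far above the array medians in both groups.

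To see how the difference that accompanies Apc loss compares with the same difference where Brg1 is intact, Apc deficient arrays were set beside controls. The 2 comparisons share no array, but only in the latter do the groups also differ in Cre. Among the controls, replicate 4 averaged 10.2 on 17 pancreatic acinar markers, against 5.85 to 6.23 in every other array, and that list had a median of -1.18 between Apc deficient and control. Control replicate 1 averaged 8.67 on smooth muscle markers, against 5.86 to 7.50 elsewhere. Between Apc deficient and control 1350 genes were higher (8.14%) and 1176 lower (7.09%). Of those 1350, 664 were also higher in the Brg1-Apc deficient against Brg1 deficient comparison, which is 49.2% of the former list and 72.4% of the latter. In that comparison 5.53% of all genes were higher and only 0.946% lower, so few falls could be shared. For falls the overlap was 100 genes, 8.50% of the 1176 and 63.7% of the 157. Leaving out Brg1 deficient replicate 4 made it 272 of 1488 (18.3%). It was 4.87% of the falls with Apc loss alone when Brg1 deficient replicate 3 was left out, and the same when Brg1-Apc deficient replicate 3 was. Without control replicate 4 the shared genes were 50.5% of the rises and 9.14% of the falls with Apc loss alone, and with control replicate 1 left out they were 48.7% and 8.72%. Opposite calls numbered 2 among the rises and 0 among the falls.

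Sizes of the differences were compared as well. Genes higher with Apc loss alone had a median difference of 1.19 there and of 0.81 in the absence of Brg1, with 1261 (93.4%) on the same side of 0. Genes lower with Apc loss alone had medians of -1.29 and -0.35, with 971 (82.6%) on the same side. For the same genes the second median was -0.34 when Brg1 deficient replicate 4 was left out. These medians were chosen on the Apc deficient arrays, which favours the first value of each pair. Chosen the other way round, the 917 genes that rose had medians of 1.14 and, between Apc deficient and control, 1.11, and the 157 that fell had -0.99 and -1.11. Across all genes the differences had a Pearson correlation of 0.579 and a Spearman correlation of 0.452, where genes are not independent replicates. For the 1176 genes lower with Apc loss alone, the median level was 9.34 in controls, 7.64 in Apc deficient, 8.93 in Brg1 deficient and 8.55 in Brg1-Apc deficient epithelium.

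**Figure D4:**
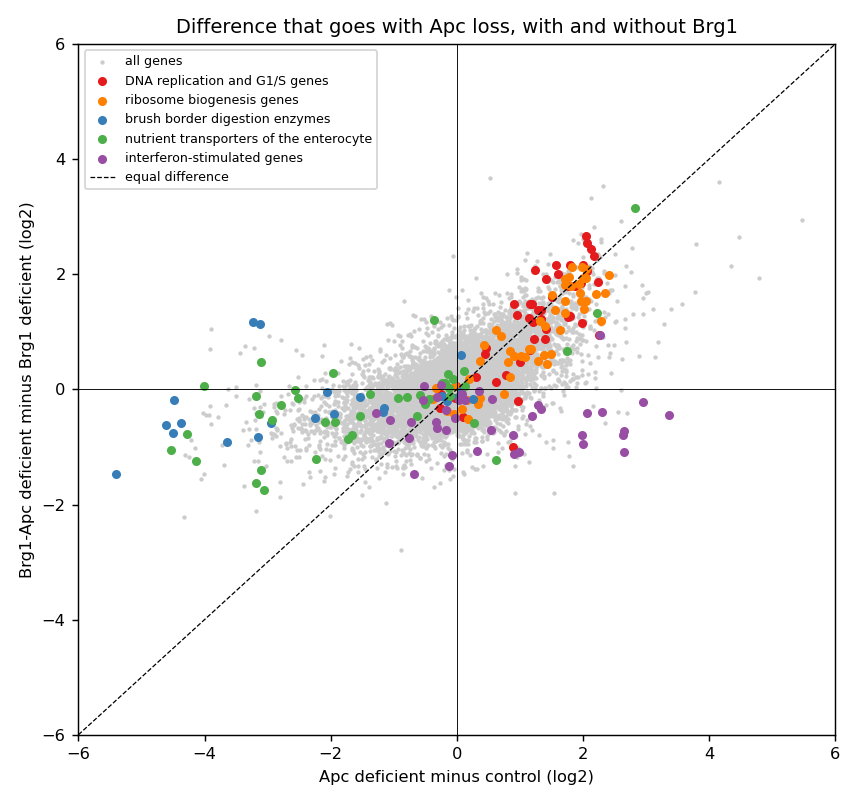
Each grey point is a gene, with its log2 difference between Apc deficient and control on the horizontal axis and between Brg1-Apc deficient and Brg1 deficient on the vertical axis, and 5 lists are coloured. DNA replication genes, with medians of 1.31 and 1.27, scatter about the dashed line of equal difference, and ribosome biogenesis genes, with medians of 1.38 and 0.92, lie mostly below it. Digestion enzymes and transporters, with medians of -2.15 and -1.45 on the horizontal axis, have medians of -0.26 and -0.15 on the vertical axis.

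The lists can be set side by side. DNA replication and G1/S genes had medians of 1.27 without Brg1 and 1.31 with it, with 27 and 32 of 46 higher, and 0 of 46 passed the interaction test (limma). For G2/M and mitosis genes the medians were 0.78 and 1.08, and only Melk, a mitotic kinase, passed the interaction test (-1.69, limma adjusted p = 0.0426). Ribosome biogenesis genes had 0.92 and 1.38, with 0 of 53 past the interaction test (limma). Stem cell genes had 0.51 and 1.62. Digestion enzymes had -0.26 and -2.15, with 16 of 22 lower in Apc deficient against control and 5 past the interaction test. Transporters had -0.15 and -1.45, with 23 of 42 lower and 10 past the interaction test. Brush border structure genes had -0.52 and -1.33, and lipid absorption genes -0.33 and -1.22. Interferon-stimulated genes had -0.52 and 0.23, and T cell and intraepithelial lymphocyte markers -0.12 and -1.34, with 12 of 21 of the latter lower between Apc deficient and control.

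Tested gene by gene, the interaction passed for 132 genes above 0 (0.796%) and for 45 below 0 (0.271%). Of the 132, 127 fell between Apc deficient and control, and of the 45, 41 rose there. That difference is itself subtracted in the interaction, so such a match follows in part from how the interaction is built. Xpnpep2, an aminopeptidase of the brush border, read 12.49, 11.47, 12.95 and 12.79 in controls and 9.99, 8.30 and 9.62 without Apc. It read 9.28, 7.39, 8.86 and 10.07 in Brg1 deficient and 9.82, 9.74, 9.39 and 11.22 in Brg1-Apc deficient arrays. Controls alone were high, and the interaction was 4.27 (limma adjusted p = 0.0197). Asah2, neutral ceramidase, had group means of 13.34, 8.98, 12.76 and 12.17 in the same order of groups, so that it was low with Apc loss alone (interaction 3.78, limma adjusted p = 0.0102). Cyp3a25, a xenobiotic oxidase, and Treh had interactions of 4.62 and 4.41, Mme one of 4.30, and Slc13a2, a dicarboxylate transporter, one of 3.59. The nucleoside carrier Slc28a1 read near background in every group but controls (4.06, limma adjusted p = 0.000459). A further fall of a gene that is near background in the Brg1 deficient group cannot be measured.

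On the other side were genes that rose with Apc loss alone. Atg9b, an autophagy lipid scramblase, read 10.46, 10.21 and 11.02 in Apc deficient and 5.55 to 5.94 in control arrays. It read 6.70, 7.77, 7.58 and 7.02 in Brg1-Apc deficient and 5.46, 5.07, 5.24 and 5.57 in Brg1 deficient arrays. Atg9b therefore rose in both comparisons (4.79 and 1.93), with an interaction of -2.85 (limma adjusted p = 0.00299). Cldn2, a leaky crypt claudin, had a difference of -0.01 beside 2.61, and Btc, the growth factor betacellulin, of 0.56 beside 3.15. Ifit3, an interferon-induced gene, had -1.08 beside 2.65, and Ly6d, a membrane protein, -0.40 beside 2.69. Their interactions were -2.61, -2.58, -3.74 and -3.09. The number of genes past the interaction test, 177, depended on single arrays. Leaving out Apc deficient replicates 2 and 3 in turn gave 21 and 91. Leaving out Brg1 deficient replicates 1, 2 and 4 gave 85, 86 and 422. Leaving out Brg1-Apc deficient replicates 1 and 4 gave 60 and 50, and leaving out control replicates 1, 3 and 4 gave 61, 67 and 58. At an unadjusted p under 0.05, 1903 genes passed.

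**Figure D5:**
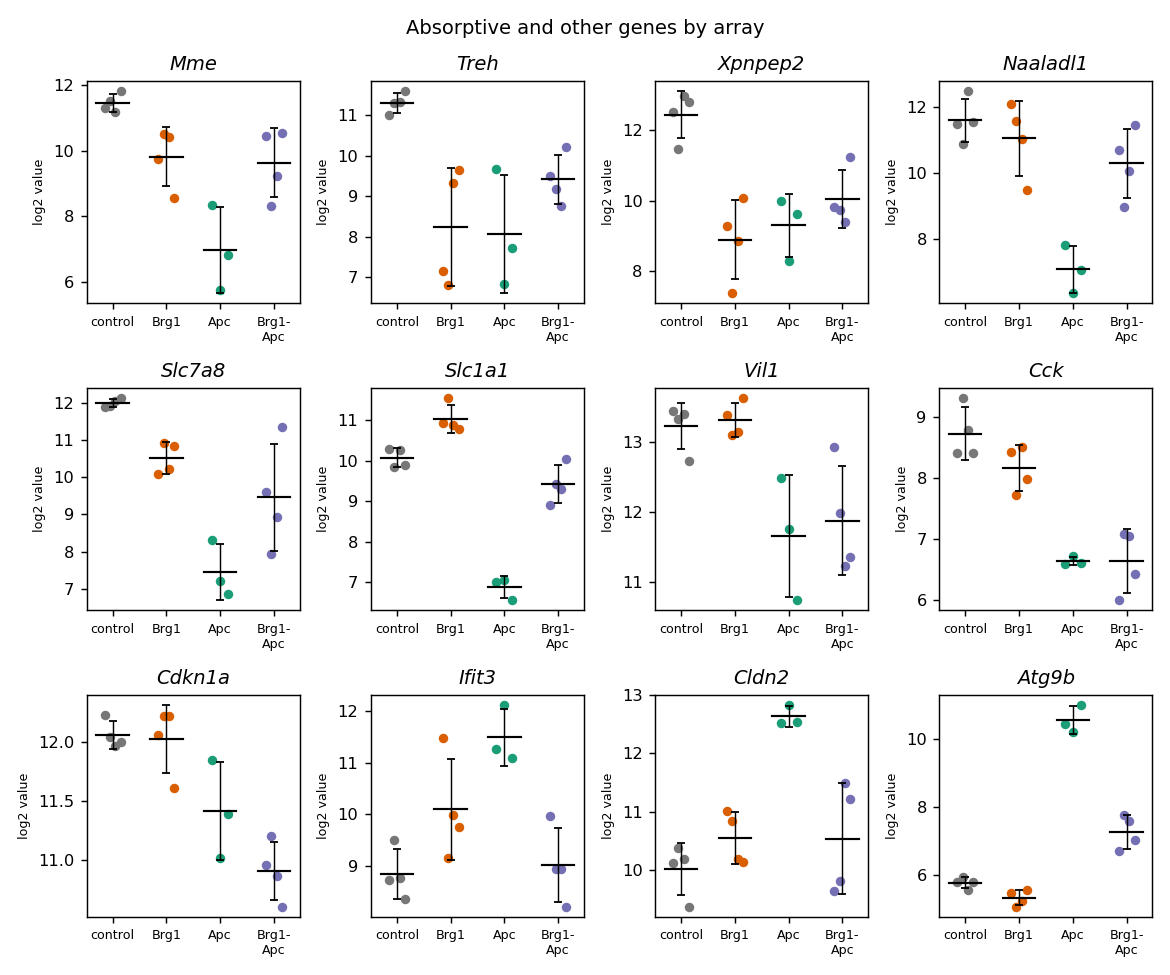
Each panel shows the log2 value of 1 gene by array, with horizontal lines at the group means and bars of 1 SD over 3 or 4 mice, and the vertical scale differs between panels. Mme and Naaladl1 are lowest in the Apc deficient group, Xpnpep2 and Treh are highest in controls, and Atg9b is highest in the Apc deficient group with Brg1-Apc deficient arrays in between.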

How the data were processed

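Total RNA from scraped jejunal epithelium of 15 mice was measured on 1-colour bead arrays, 1 per mouse, after column clean-up and labelling of 100 ng, per the labels' protocols. For 25695 probes the authors deposited expression on the log2 scale; how it was normalized the sources used here do not say. No further scaling was applied and no detection values were used, so precision is limited by the number of arrays. Groups and replicate numbers come from the sample labels, and the series describes each genotype as a cohort with its number of animals, so each array is taken as a different mouse.

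With limma 3.58.1 (R 4.3.3), all 15 arrays entered a linear model holding a mean for each genotype (11 residual degrees of freedom), with Benjamini-Hochberg adjustment over all probes at 0.05 and two-sided tests. It was tested on simulated data. Contrasts were Brg1-Apc deficient minus Brg1 deficient, Apc deficient minus control, and the former minus the latter (interaction). Of the probes 23976 carried 1 symbol and 1719 were unnamed here. The 16592 genes included 4776 with several probes, and the probe with the highest mean stood for its gene. Gene lists (51, with 1318 measured genes) are described by counts and medians. The genes, lists and comparison were chosen with earlier results of these data known, so nothing here is independent of them.

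Named genes were Smarca4 and Apc, the 12 rises and 12 falls of greatest size that passed with no overlap of arrays and a higher group mean above 5.90, the 3 smallest p-values of each list, the 6 largest interactions per side and the 8 largest changes per side between Apc deficient and control. Other list members are given as values. Alternatives were a block for slide or for replicate number, a fit within either slide, median centring, quantile normalization, only brighter probes, only the 8 arrays, another prior, array weights, adjustment over genes, the most variable probe, leaving out each array, and leaving out 2 doubted arrays together. Single arrays were screened with Dixon's test (critical value 0.829 for 4 arrays). Promoter windows from RefSeq matched 13336 of the 16592 genes. Python 3.11.15 and matplotlib 3.10.9 made the figures.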

Additional observations from a re-analysis of the deposited data

Results flagged for a closer look

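A screen of the named genes for a single array far from the other 3 of its group marked 18 of 366 groups, where chance marks about 1 in 20. Of these, 6 fell on Brg1 deficient replicate 4 and another 6 on Brg1-Apc deficient replicate 2. Brg1 deficient replicate 4 was low for the sphingomyelinase Enpp7 (6.44), the cholesterol enzyme Fdps (10.49), the glycolytic enolase Eno3 (6.23), the nitric oxide synthase Nos2 (5.79) and the carbonic anhydrase Car4 (9.62), and high for the tuft cell phospholipase Plcb2 (6.92). Brg1-Apc deficient replicate 2 was low for Slc40a1 (9.81), Rps4x (14.24) and Stat2 (6.27), and high for Msx1 (9.53), St3gal4 (8.69) and Kif22 (10.83). In other arrays, Slc12a2 was low in Brg1 deficient replicate 3 (8.49) and Acot1 was high in Brg1 deficient replicate 1 (8.93). Habp2 (7.10) and Bdh1 (9.62) were low in Brg1-Apc deficient replicate 1. In Brg1-Apc deficient replicate 4, Phf11d was low (6.46) and Enpp7 high (9.42).

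For 28 named genes the difference that goes with Apc loss differed between Brg1 deficient and Brg1 wild type epithelium by the interaction test of limma. The rule named the 6 largest interactions per side, and also the largest changes between Apc deficient and control, which enter the interaction. The count of 28 is thus partly fixed by the rule. Over all genes 0.796% passed above 0 and 0.271% below 0. Interaction values above 0, in order of size, were those of Cyp3a25 (4.62), Treh (4.41), Mme (4.30), Xpnpep2 (4.27), the acetyltransferase Nat8 (4.12) and the sialyltransferase St3gal4 (4.08). Next came Asah2 (3.78), the peptidase Naaladl1 (3.75), the amino acid transporter Slc7a8 (3.48), Reg3a (2.49), the actin-severing Scin (2.15), the Notch feedback gene Nrarp (1.84), Eno3 (1.83) and the goblet cell gene Bcas1 (1.79). The smallest of these were Slc1a1 (1.57), Cdkn2b (1.40), Il17rb (1.35) and Smad5 (1.22). Values below 0 were those of Ifit3 (-3.74), Ly6d (-3.09), Phf11d (-2.94), Atg9b (-2.85), Cldn2 (-2.61), Btc (-2.58), Rgcc (-2.20), Etv4 (-2.08), Acot1 (-1.65) and Upk3b (-1.34).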

How the results depend on the processing

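No named gene that passed the test turned its direction under any alternative run. The 917 rises and 157 falls became 956 and 177 with slide as a block, and 876 and 170 with the replicate block, which gave 162 interactions for 177. The labels share replicate numbers but correlations of same-numbered arrays were 0.275, -0.179, -0.055 and 0.064, so the numbers were not taken as pairs. Array weights gave 272 falls and 407 interactions, and quantile normalization 250 falls. A fit of only the 8 arrays, with fewer arrays to estimate the spread, gave 415 rises and 46 falls. Slide 1 alone (2 arrays against 2) gave 302 rises, 206 falls and 72 interactions, and slide 2 alone, which holds Brg1 deficient replicate 4, 219, 7 and 0. With both Brg1 deficient replicate 4 and replicate 2 of the Brg1-Apc deficient group left out there were 929 rises, 428 falls and 548 interactions. Leaving out 1 array at a time gave 614 to 1059 rises, 87 to 565 falls and 21 to 422 interactions. The cause of these shifts was not tested. Of the 95 named genes past the test, 94 stayed past it with slide as a block, 87 with the replicate block, 81 after quantile normalization, 92 without Brg1 deficient replicate 4 and 58 with only the 8 arrays. Signal near background limits what could be seen of low genes.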

Other observations

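Some gene groups with few members past the test were not described above. Immediate early and heat shock genes held 3 rises among 27 members, Hsph1, a chaperone cofactor, at 1.29, Egr1, a growth-induced zinc finger factor, at 1.23 and Ier3 at 0.99, and 1 rise after quantile normalization. The unfolded protein response list held 1 fall among 23, Sel1l of endoplasmic reticulum degradation at -0.71, with 9 falls without Brg1 deficient replicate 4 and 0 after median centring. Edem1 had -1.27 (limma adjusted p = 0.0547) and Hyou1 -0.81 (limma adjusted p = 0.0712). Of 18 cholesterol synthesis genes 1 rose, Fdps at 1.14, and of 18 circadian clock genes 1 rose, Bhlhe40 at 1.03 (0 after quantile normalization). Of 43 junction, keratin and adhesion genes 2 rose, Krt23 and Krt7, the latter by 0.96, while 4 fell without Brg1 deficient replicate 4. The shares that rose on the cholesterol, clock and junction lists, 5.56%, 5.56% and 4.65%, are near the 5.53% of all genes.

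Single genes outside the lists were noticed after their values were seen. Angptl4, a secreted inhibitor of lipoprotein lipase, rose by 2.32 (limma adjusted p = 0.00126) and had a difference of -0.06 between Apc deficient and control, with an interaction of 2.38 (limma adjusted p = 0.0519). Deptor, an inhibitor of mTOR, rose by 1.60 (limma adjusted p = 0.000681) beside -0.02, with an interaction of 1.62 (limma adjusted p = 0.0388).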
